A study of Mus musculus with 4 samples.

Results

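CD4 T cells of the injured carotid artery were selected from single-cell RNA sequencing libraries of days 3, 7 and 14 after wire injury. Their selection rested on measured counts of unique molecular identifiers (UMIs, 1 per captured RNA molecule). A barcode was taken when it held at least 500 genes, at least 1000 UMIs and no more than 10% mitochondrial UMIs, at least 2 UMIs summed over Cd3d, Cd3e and Cd3g, at least 1 UMI of Cd4, and none of Cd8a, Cd8b1, Trdc, Cd163l1, Csf1r or Cd68. This gave 112 cells of 4094 barcodes that passed the filters on these 3 days (11 at day 3, 84 at day 7 and 17 at day 14), of 4343 that passed and 6161 in all 4 libraries. The levels of the 10 genes used for selection are therefore no result.

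The series follows the left common carotid of C57BL/6 mice, male by the study's methods and 11 weeks old at injury, before a wire stripped the endothelium (day 0) and 3, 7 and 14 days after it. The mice carried no transgene and received no lipid-rich diet, and thrombosed vessels had been left out. Arteries of several mice were pooled, dissociated and loaded as 1 library per time point. Each day is thus 1 sample, no test between days was possible, and every interval between days covers counting error only, not differences between mice or preparations.

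CD4 T cells recognise peptides on class II major histocompatibility molecules through an αβ T cell receptor and the CD3 chains. Once activated through the receptor and through costimulatory molecules such as CD28 and ICOS, they can become helper cells of several kinds, named after their cytokines and master transcription factors (Tbx21 and interferon gamma for Th1, interleukin 17 for Th17), or act as Foxp3-expressing regulatory T cells. In injured and atherosclerotic arteries T cells gather in the vessel wall, where Th1 cytokines act on macrophages and smooth muscle cells and regulatory T cells restrain inflammation.

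The libraries held 18989081, 27973418 and 13329564 UMIs at days 3, 7 and 14, and the CD4 T cells held 56281, 562202 and 88535 of them. Median UMIs per CD4 T cell were 5231, 5634 and 4915. Cells of a macrophage gate (at least 2 UMIs of Csf1r and Cd68, none of the Cd3 genes), used below to show how many UMIs of a T cell gene reach other cells, were deeper, with medians of 13672, 11574 and 10733. The libraries of days 7 and 14 shared 64 barcodes, those of days 0 and 3 shared 152 and those of days 3 and 7 shared 1. Only 1 CD4 T cell, at day 7, carried a shared barcode. It was the deepest, with 49877 UMIs or 8.87% of the day 7 CD4 sum, and its day 14 namesake held 579 UMIs and none of Cd3d, Cd3g, Cd4 or Trac. At day 14, a cell of 15860 UMIs (17.9% of that day's CD4 sum) held dendritic cell genes beside those of T cells, with 304 UMIs of Cd74, 154 of H2-Aa and 78 of Cd209a against 9 of Trac and 1 of Cd4. Neither was among the 106 barcodes that Scrublet ranked highest at the preset doublet rate, and no CD4 T cell was. Leaving out cells that held genes of other cell types left 11, 83 and 16 CD4 T cells. Fibroblast markers (8 of 8 with a UMI, Col1a1 and Dcn among them) were found at 444, 984 and 892 CPM in 10, 83 and 17 CD4 T cells, and those of monocytes and macrophages at 355, 276 and 520 against 12091, 14398 and 19901 in the macrophage gate.

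The label was checked on genes that played no part in the selection, and these were present. Trac, the constant region of the T cell receptor alpha chain, was detected in 112 of 112 cells, and Lck, the kinase that starts receptor signalling, in 104. Icos was detected in 80 cells, or 71.4%, against 26.1% of the CD8 T cells and 48.4% of the γδ T cells gated in the same way, whose median depths were 6378 and 6014 UMIs against 5392 in CD4 T cells over the 3 days. Defining genes of NKT and NK cells (Zbtb16, Klrb1c, Ncr1) and of γδ T cells (Trdv4, Sox13) were at 0 UMIs. The whole γδ T cell and NK lists were not. The 5 γδ T cell genes held 1, 6 and 5 UMIs at days 3, 7 and 14, in 1, 5 and 1 cells, and the 8 NK genes held 0, 24 and 1, in 0, 8 and 1 cells, which at day 7 was 42.7 CPM against 21.7 in the macrophage gate. The genes with the highest ratio of level over all other barcodes that passed the filters, averaging the 3 days equally, included Trac (774 against 23.2 CPM, UMIs of the gene per 1000000 UMIs), Cd28 (526 against 11.0), Icos (457 against 10.2), the lineage factor Bcl11b (391 against 12.3) and the interleukin 7 receptor Il7r (776 against 52.0). The cells at the edge of the gates were few for Cd3 and many for Cd4. Only 2 cells held exactly 2 Cd3 UMIs, at a summed Trac level of 1002 CPM, while the 2 otherwise eligible cells with 1 Cd3 UMI had 43.4. Of the 112 cells 52 rested on a single Cd4 UMI, and their Trac level was 848 CPM against 799 in the 60 cells with more. A further 12 cells, all of day 7, were kept out only by a UMI of Csf1r or Cd68. The cells gated on Cd3 that held no UMI of Cd4, Cd8a, Cd8b1, Trdc or Cd163l1 numbered 124 and could include CD4 T cells whose Cd4 RNA was not captured.

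CD4 T cells were most frequent at day 7. Of the barcodes passing the filters they made up 0.920% at day 3 (95% exact Clopper-Pearson interval 0.460-1.64%), 4.16% at day 7 (interval 3.33-5.13%) and 1.93% at day 14 (interval 1.13-3.08%). From day 3 to day 7 the share differed by a factor of 4.53 (interval 2.41 to 9.41), and from day 7 to day 14 by a factor of 0.464 (0.258 to 0.788). Within the cells gated on Cd3 alone the shares were closer together, at 20.8% of 53 cells, 30.7% of 274 and 23.9% of 71, and none of the 3 ratios between days had an interval that excluded 1. CD4 T cells numbered 0.407 per CD8 T cell at day 3, 1.79 at day 7 and 1.21 at day 14.

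**Figure D1:**
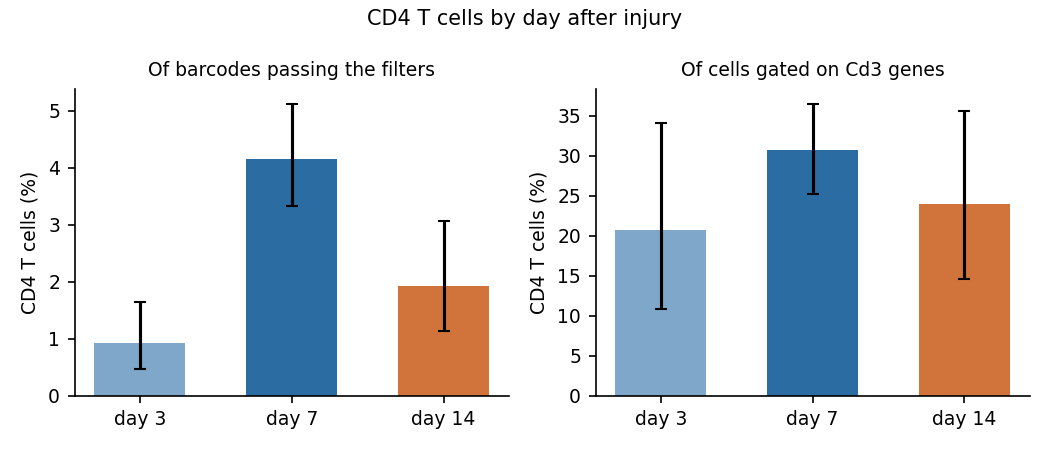
Share of CD4 T cells at days 3, 7 and 14, as a percentage of the barcodes passing the filters (left) and of the cells gated on Cd3 genes (right). Bars start at 0 and error bars are 95% exact binomial intervals for 1 library per day. The left panel peaks at 4.16% at day 7, while the intervals of the right panel overlap.

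Costimulatory receptors, which sit beside the antigen receptor and set how strongly a T cell responds, did not move as 1 group, and 4 of the 9 compared were at least 2-fold higher at day 7 than at day 3. Levels are given as CPM of the summed CD4 T cells of a day. Icos was measured at 160 CPM at day 3 (95% Poisson interval 73.1-304), at 454 CPM on day 7 (interval 400-513) and at 757 CPM on day 14 (interval 587-961), and it was detected in 4, 63 and 13 cells. The ratio of day 7 to day 3 was 2.84 (1.47 to 6.27) and that of day 14 to day 7 was 1.67 (1.26 to 2.19). Among cells with at least 2 Cd4 UMIs, however, the log2 ratio of day 14 to day 7 was -0.03, so this difference was absent without the cells with a single Cd4 UMI. These included the 4 day 14 cells with a Foxp3 UMI, which held 40 of the 67 Icos UMIs of that day. In cells without Foxp3, Icos stood at 394 CPM at day 7 and 461 at day 14.

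The checkpoint receptor Pdcd1 had 0 UMIs in the 11 cells of day 3, 90 UMIs in 25 cells of day 7 and 11 UMIs in 5 cells of day 14. Counted against a floor of 3 UMIs, or 53.3 CPM, its level at day 7 was at least 3.00-fold higher than at day 3. The deepest day 7 cell held 27 of the 90 UMIs, and without it day 7 had 63 UMIs or 123 CPM. Tnfrsf4 (OX40), a survival receptor of activated T cells, stood at 53.3, 272 and 169 CPM (day 7 to day 3 ratio 5.11, 1.71 to 25.03). The deepest day 7 cell held 30 of its 153 UMIs of that day. The inhibitory receptor Ctla4 stood at 35.5, 139 and 169 CPM (3.904, 1.045 to 32.8), from 2 UMIs at day 3. Cd28, the founding costimulatory receptor, went the other way, with 604, 329 and 644 CPM (day 7 to day 3 ratio 0.545, 0.376 to 0.810). Of its 34 day 3 UMIs 11 were in 1 cell, without which day 3 had 472 CPM. Cd27, Cd226 and Tnfrsf18 had ratios of 0.545, 0.767 and 0.871 with intervals that included 1. Of the 9 list genes that could be compared, meaning a UMI in at least 20% of the cells of either day, 4 were at least 2-fold higher at day 7 than at day 3 and none was 2-fold lower. Folds of this kind are on the scale of CPM plus 20. Across all 4165 genes so compared, 10.4% were at least 2-fold higher and 8.14% at least 2-fold lower at day 7, and the list's median log2 ratio of 0.52 stood beside -0.02 for all genes.

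Another difference between days concerned activation and immediate early genes, which are transcribed within minutes of receptor or stress signals and encode AP-1 subunits (Fos, Fosb, Jun, Junb), NR4A nuclear receptors and feedback phosphatases and inhibitors (Dusp1, Dusp2, Tnfaip3, Nfkbid). Most of them were higher at day 14 than at day 7. Of 16 list genes compared, 11 were at least 2-fold higher at day 14 than at day 7 and none was 2-fold lower, against 5.23% higher and 7.72% lower of all 4133 genes compared. The list's median log2 ratio was 1.29, with the medians of the genes' lower and upper interval bounds at 0.67 and 1.81, while the median of all genes was -0.06. Against day 3 the count was again 11 higher and 0 lower of 16, with a median of 1.30, where 14.0% of 3853 genes were higher and 15.5% lower. These comparisons share the day 14 library. Without the cells that held genes of other types the counts against day 7 were the same, 11 and 0, and the median was 1.29. Leaving out the day 14 cell with most UMIs of the list also gave 11 and 0, with a median of 1.39.

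Junb was detected in 17 of 17 cells at day 14. Its level was 1581 CPM at day 3, 1546 at day 7 and 4100 at day 14, a ratio of 2.65 between days 14 and 7 (2.34 to 3.00). Fos stood at 551, 256 and 1344 CPM, or 180 at day 3 without 1 cell that held 22 of the 31 UMIs, and was detected in 6, 50 and 10 cells (day 14 to day 7 ratio 5.25, 4.08 to 6.74). Jun had 391, 340 and 1107 CPM (3.26, 2.53 to 4.18). In each of these AP-1 genes the day 14 interval lay above those of both other days.

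The receptor-induced nuclear receptor Nr4a1, widely used as a reporter of antigen receptor signalling, was measured at 302, 187 and 802 CPM (4.29, 3.13 to 5.86). Nr4a3 had 195, 72.9 and 237 CPM, so that its level at day 14 was above that of day 7 but overlapped that of day 3. Dusp2, a nuclear phosphatase of MAP kinases, had the largest ratio of the list between days 14 and 7 (6.05, 4.40 to 8.31), with 195, 149 and 904 CPM. Dusp1 reached 904 CPM at day 14 from 224 at day 7 (ratio 4.03, or 2.54 without 1 day 14 cell with 33 of 80 UMIs), and Tnfaip3, the A20 inhibitor of NF-κB signalling, 745 from 361. Cd69, which keeps recently activated T cells in tissue, had 107, 308 and 587 CPM, and both steps had ratios whose intervals lay above 1. Rel (88.8, 171 and 90.4) and Egr1 (107, 94.3 and 147) had intervals that overlapped on the 3 days.

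**Figure D2:**
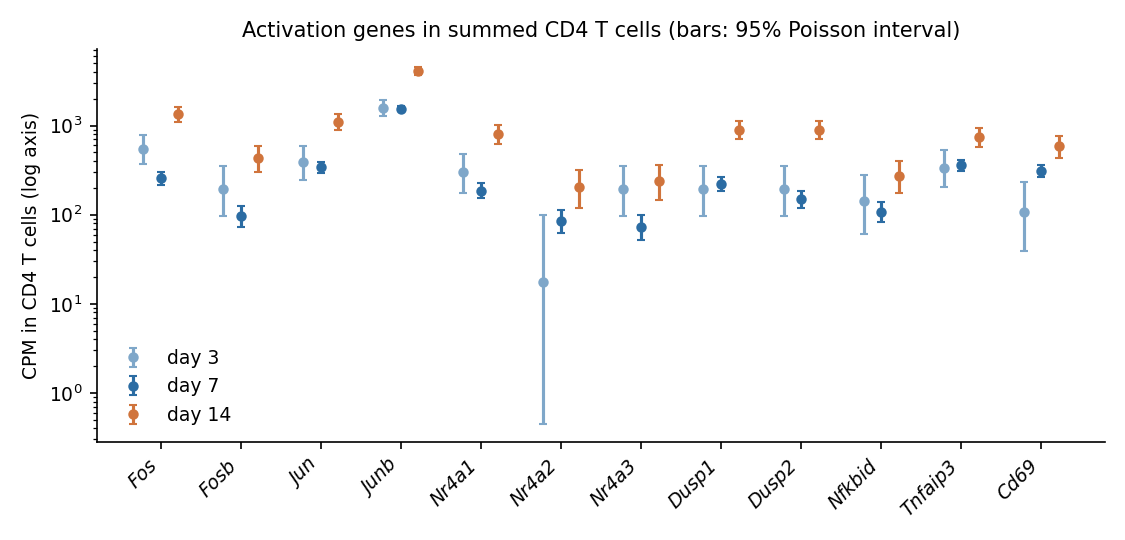
Levels of 12 activation genes in the summed CD4 T cells of days 3, 7 and 14, in CPM on a log axis. Points are the levels and bars the 95% Poisson intervals of 1 library per day. The genes are Cd69 and the 11 that were at least 2-fold higher at day 14 than at day 7. That day 14 lies above day 7 for these 11 thus follows from their choice. The list genes Cd44, Egr1, Nfkbia and Rel are not shown. Day 14 is the highest of the 3 days for each gene shown, with overlapping intervals against day 3 for some, among them Nr4a3.

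The difference was spread over cells. Counted in each cell, the list made up a median of 30.7 UMIs per 10000 at day 3, 45.2 at day 7 and 120 at day 14, with cells ranging from 11.5 to 88.6, from 7.22 to 178 and from 13.5 to 391. The lower quartile of day 14, 88.1, lay above the upper quartile of day 7, 78.1, though the ranges overlapped. The 5 cells with most of these UMIs at day 14 held 59.2% of the day's total.

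**Figure D3:**
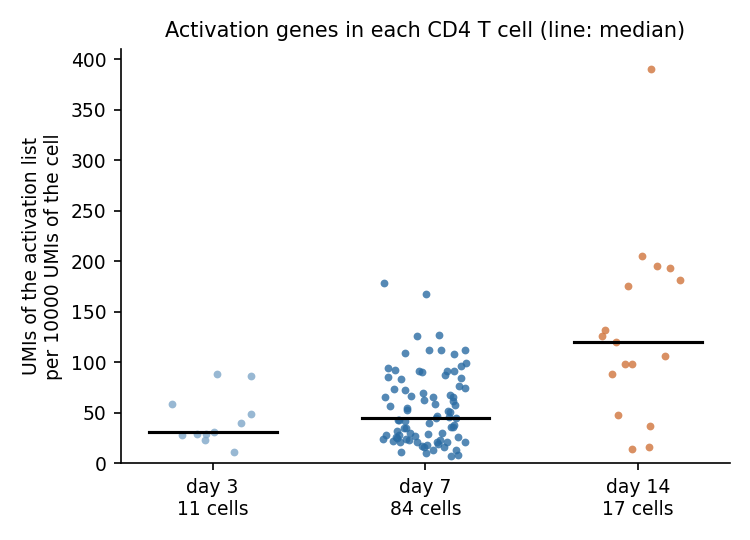
Activation list in each CD4 T cell, as UMIs of the list per 10000 UMIs of the cell, by day. Each point is 1 cell and each line a median (30.7, 45.2 and 120); cells of a day come from 1 library and are not replicates.

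Other measurements moved in the same direction. Of 14 stress and dissociation genes compared, of which 3 (Fos, Jun, Junb) are also on the activation list, 7 were at least 2-fold higher at day 14 than at day 7 and none was lower (median log2 ratio 0.97, beside -0.06 for all genes, of which 5.23% were higher and 7.72% lower). The heat shock gene Hspa1a stood at 835, 788 and 2383 CPM (day 14 to day 7 ratio 3.03, 2.56 to 3.57), whereas the constitutive chaperone Hspa8 was lower at day 14 (ratio 0.602). Macrophage-gate cells of the same libraries had 835, 1590 and 3109 CPM of Fos and 884, 1832 and 3662 of Junb, and their median for the activation list was 0.79, with 3 of 16 genes 2-fold higher, beside 0.436% of the 4133 genes. The corresponding medians were -0.18 in CD8 T cells (2 genes higher and 3 lower, beside 3.65 and 4.79% of all genes), 0.59 in γδ T cells (4 and 0, beside 3.63 and 4.67%) and 0.26 in Cd3 cells without a lineage gene (0 and 1, beside 1.57 and 2.78%). What part tissue dissociation or free RNA had in the CD4 values was not tested.

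The bases in front of the start sites of the 11 genes were read from the RefSeq promoter windows of mouse build GRCm38.p6, since genes that move together can share short motifs, and all 11 matched by symbol. In the 250 bases before each start, the core of the cAMP response element (TGACG, or CGTCA on the other strand) occurred in 9 of the 14 windows of these genes (64.3%), compared with 17.8% of all 32851 windows of the same length. Counted by gene, 9 of 11 held it in at least 1 window, compared with 19.8% of 27025 genes. Of the 4 other list genes with a window, 2 held it. The full palindromic element TGACGTCA, which contains the core on both strands, occurred in 2 of the 11 genes and 1.55% of all windows, the AP-1 motif TGANTCA in 1 gene and 6.75%, and the CArG box in none and 1.47%. The core was searched after the other motifs, and matches describe letters, not occupied sites. For the other motifs, counts of genes stand beside shares of windows, not of genes. The background windows were not matched for base composition, and sites farther than 250 bases before a start were not searched. The windows of the 3 NR4A genes, of Fos and of Dusp1 are shown because each of these genes has 1 window and at least 2 cores in it, with the cores in capitals.
Nr4a1, chr15:101266596-101266845, plus strand: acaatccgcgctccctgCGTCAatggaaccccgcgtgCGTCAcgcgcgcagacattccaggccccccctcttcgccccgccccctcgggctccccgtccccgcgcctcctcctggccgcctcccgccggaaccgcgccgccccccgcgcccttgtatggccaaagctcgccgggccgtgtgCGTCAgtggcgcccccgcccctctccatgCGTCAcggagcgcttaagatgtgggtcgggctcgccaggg
Nr4a2, chr2:57124004-57124253, minus strand: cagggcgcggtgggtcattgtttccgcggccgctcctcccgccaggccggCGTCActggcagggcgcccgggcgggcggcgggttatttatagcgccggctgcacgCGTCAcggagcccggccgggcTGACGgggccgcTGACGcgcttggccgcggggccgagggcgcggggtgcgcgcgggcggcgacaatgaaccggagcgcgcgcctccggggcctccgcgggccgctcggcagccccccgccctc
Nr4a3, chr4:48045055-48045304, plus strand: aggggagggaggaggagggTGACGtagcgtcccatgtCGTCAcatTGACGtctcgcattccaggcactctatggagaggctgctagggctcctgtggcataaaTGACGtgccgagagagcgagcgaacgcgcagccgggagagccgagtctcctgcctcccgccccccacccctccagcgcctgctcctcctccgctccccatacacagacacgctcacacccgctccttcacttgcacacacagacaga
Fos, chr12:85473640-85473889, plus strand: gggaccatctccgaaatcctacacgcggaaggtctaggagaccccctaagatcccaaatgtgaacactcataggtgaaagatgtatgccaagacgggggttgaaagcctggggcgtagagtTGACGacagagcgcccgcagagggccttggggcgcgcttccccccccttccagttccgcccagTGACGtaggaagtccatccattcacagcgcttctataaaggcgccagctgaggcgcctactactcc
Dusp1, chr17:26508473-26508722, minus strand: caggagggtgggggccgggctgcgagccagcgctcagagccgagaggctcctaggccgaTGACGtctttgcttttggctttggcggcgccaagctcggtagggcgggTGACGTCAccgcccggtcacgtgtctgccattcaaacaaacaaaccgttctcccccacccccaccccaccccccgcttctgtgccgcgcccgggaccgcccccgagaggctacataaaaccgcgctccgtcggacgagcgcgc
The windows of Nr4a1, Nr4a2 and Nr4a3 each hold 4 cores, that of Fos holds 2 and that of Dusp1 holds 3, of which a pair forms the full element.

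A part of the interferon-stimulated genes was lower at day 14, a count that depended on 1 day 7 cell. Of 11 compared, 5 were at least 2-fold lower at day 14 than at day 7 and none was higher, where 7.72% of all genes were lower, with a median log2 ratio of -0.92 that became -1.47 without the cells holding genes of other types. Without the day 7 cell with most UMIs of the list 2 of 11 were 2-fold lower and the median was -0.65. The ubiquitin-like protein Isg15 was measured at 88.8, 153 and 33.9 CPM, and 38 of its 86 day 7 UMIs were in 1 cell, without which the ratio of day 14 to day 7 went from 0.222 to 0.390 (0.0778 to 1.21). A group of 5 strongly inducible genes (Ifit1, Ifit3, Rsad2, Mx1 and Usp18) had 7, 186 and 0 UMIs, but 132 of the 186, or 71.0%, came from a single day 7 cell. Proliferation genes were likewise concentrated. Mki67 had 0, 98 and 1 UMIs, in 0, 9 and 1 cells, and Top2a 1, 127 and 1, while 1 day 7 cell held 34.8% and 5 cells 68.7% of all UMIs of the proliferation list on that day.

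Genes of Th1 cells were detected on each day. Ifng or Tbx21 was detected in 5 of 11 cells at day 3 (45.5%), 25 of 84 at day 7 (29.8%) and 6 of 17 at day 14 (35.3%), against 0.735%, 1.42% and 1.97% of the deeper macrophage-gate cells. Of these 36 cells 25 also held Ccl5, a chemokine of effector T cells. Ifng itself stood at 107, 171 and 203 CPM, with overlapping intervals. Of its UMIs, 3 of 6 at day 3 and 9 of 18 at day 14 were in 1 cell of the day. Without these cells the levels were 57.5 CPM at day 3 and 107 at day 14. In CD8 T cells of the same libraries Ifng had 686, 333 and 81.6 CPM. Tbx21 had 208, 85.8 and 54.4 CPM there, against 71.1, 24.9 and 67.8 in CD4 T cells. In γδ T cells of days 7 and 14 Ifng had 177 and 81.0 CPM and Tbx21 had 86.7 and 0. Ccl5 stood at 3109, 1211 and 576 CPM, but 97 of its 175 day 3 UMIs were in 1 of 11 cells. Without that cell day 3 had 1501 CPM, and the ratio of day 7 to day 3 was 0.807 (0.637 to 1.03) in place of 0.390. Cxcr3, the chemokine receptor of Th1 cells, had 88.8, 217 and 67.8 CPM, with 4 of the 5 day 3 UMIs in 1 cell.

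Th17 cytokines were sparse. Il17a, Il17f and Il22, a cytokine acting on barrier and stromal cells, had 3, 9 and 18 UMIs, in 1, 4 and 1 CD4 T cells, all of day 7. The Th2 factor Gata3 was detected in 1, 45 and 11 cells (9.09%, 53.6% and 64.7%, against 0.407% or less of the macrophage-gate cells), with 17.8, 155 and 316 CPM. Over the 3 days it was detected in 50.9% of CD4, 34.1% of CD8 and 37.1% of γδ T cells. At day 14, 17 of its UMIs were in the 4 cells with a Foxp3 UMI and 11 in the rest. In cells without Foxp3 its level was 160 CPM at day 7 and 188 at day 14. The Th2 cytokines Il4, Il5 and Il13 and the receptor Ptgdr2 had 0 UMIs. Shares of cells with Cxcr5 or Bcl6 (follicular helper) were 0, 14.3 and 5.88%. The deeper macrophage-gate cells had higher shares, at 36.95, 40.69 and 39.47%. Whether the UMIs in CD4 T cells were background was not tested.

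Homing receptors differed in opposite directions between days 7 and 14. Cxcr6, the receptor for the endothelial and macrophage chemokine Cxcl16, had 7, 171 and 3 UMIs, in 4, 47 and 3 cells, or 124, 304 and 33.9 CPM (day 14 to day 7 ratio 0.111, 0.0228 to 0.331). Cxcr4, the receptor for Cxcl12, stood at 213, 103 and 328 CPM (3.18, 1.96 to 5.04, or 1.99, 1.09 to 3.47, without 1 day 14 cell), and Gpr183, an oxysterol-sensing receptor that positions lymphocytes, at 284, 183 and 520 (2.84, 1.96 to 4.05). Of 14 chemokine receptor and adhesion genes compared, 3 were at least 2-fold higher and 1 at least 2-fold lower at day 14, beside 5.23% and 7.72% of all genes. Among memory and recirculation genes, Il7r had 977, 550 and 802 CPM and Klf2, which maintains the exit receptor S1pr1, 853, 427 and 858 (570 at day 14 without 1 cell), while Tcf7, a factor of less differentiated T cells, was lower at day 14 (195, 208 and 90.4).

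Several of the largest ratios between days 14 and 7 rested on the 1 day 14 cell with dendritic genes. H2-Eb1, Cd74, H2-Aa, H2-Ab1 and Ifitm3 had log2 ratios of 4.90, 4.89, 4.40, 3.48 and 2.29, and 154 of 154 H2-Eb1 UMIs came from 1 cell. Without the cells holding genes of other types, all 5 were lower at day 14 than at day 7. At the other end, Top2a (-2.97, or -1.98 without the deepest day 7 cell, which held 69 of 127 UMIs), Serpinb1a (61 UMIs at day 7 and 0 at day 14, at least 3.202-fold lower) and Cxcr6 (-2.59) led the genes lower at day 14. Between days 3 and 7, Cks2 (0 and 131 UMIs, at least 4.37-fold higher), Cish, an inhibitor of cytokine signalling (0 and 92, at least 3.07-fold higher), and Ctla2a (71.1 and 640 CPM, ratio 9.01, 3.49 to 33.3) were among the genes with the largest ratios, and the survival gene Bcl2 among those with the smallest (444 and 92.5 CPM, ratio 0.208). Without the deepest day 7 cell Cks2 had 92 UMIs at day 7.

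Foxp3, the master factor of regulatory T cells, had a UMI in none of 11 cells at day 3 (exact Clopper-Pearson interval 0 to 28.5%), in 11 of 84 at day 7 (13.1%, 6.72 to 22.2%) and in 4 of 17 at day 14 (23.5%, 6.81 to 49.9%). In the macrophage gate the shares were 0, 0.102 and 0%. With every cell thinned to 1000 UMIs, Foxp3 was found in 2.38% of CD4 T cells at day 7 and 0% at day 14, so the shares and their intervals concern cells with a captured Foxp3 UMI, and cells without one may still express it. Median depths with and without Foxp3 were 5616 and 5651 UMIs at day 7 and 5022 and 4915 at day 14, and mean depths were 6156 and 6774 and, at day 14, 7496 and 4504. The day 14 cell with dendritic genes was 1 of the 4 Foxp3-positive cells, with 3 Foxp3 UMIs and 52.9% of their UMI sum. Without it 3 of 16 cells held Foxp3 at day 14 (18.8%, 4.05 to 45.6%). Because only day 7 held at least 5 such cells, differences within these groups are described with counting intervals and no test. With at least 2 Cd4 UMIs required, the Foxp3 shares were 6.12% at day 7 and 0% at day 14.

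Of the other 17 genes of the regulatory list, 9 had a ratio between cells with and without Foxp3 whose interval lay above 1 at day 7, 1 below 1 and 6 across it, and at day 14 these were 4, 1 and 7. The remaining genes had no UMI. Of all genes with a UMI 3.59% lay above 1 and 1.69% below at day 7, and 2.71% and 1.73% at day 14. Without the cell with dendritic genes the day 14 counts were 3, 0 and 8. All 15 held Ikzf2 (Helios), a stabilising factor of thymus-derived regulatory T cells, as did 26 cells without Foxp3. At day 7 its level was 1846 CPM in the 11 Foxp3-positive cells and 105 in the remaining 73 (ratio 17.6, 12.6 to 24.8), and at day 14 it was 934 and 68.3 (13.7, 4.78 to 53.6), or 1275 and 68.3 without the cell with dendritic genes. All 15 also held Icos, with 886 and 394 CPM at day 7 and 1334 and 461 at day 14 (1770 and 461 without that cell). Ctla4, through which regulatory T cells strip costimulatory ligands, stood at 532 and 84.9 at day 7 (6.26, 3.897 to 10.01), and Il2ra, the high-affinity interleukin 2 receptor chain, at 177 and 14.2 (12.5, 4.54 to 37.5). List genes that did not follow included Nrp1 (day 7 ratio 1.70, 0.761 to 3.43) and Nt5e (1.92, 0.854 to 3.93). The decoy receptor Il1r2 had 0 UMIs with and 30 without Foxp3 at day 7, but 28 of the 30 were in 1 cell. Tnfrsf1b had ratios of 2.98 at day 7 and 0.266 at day 14, and the latter was 0.377 (0.0430 to 1.53) without the cell with dendritic genes. Tnfrsf9, Tnfrsf4 and Tnfrsf18, receptors of the tumour necrosis factor family, had ratios of 17.3, 3.44 and 3.51.

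Areg, an epidermal growth factor receptor ligand linked to tissue repair by regulatory T cells, had most of its UMIs in these cells. It was detected in 9.09, 7.14 and 23.5% of CD4 T cells at days 3, 7 and 14 and in 1.65, 4.17 and 3.29% of the deeper macrophage-gate cells, at 3.95, 19.7 and 15.3 CPM, so at day 7 the interval of the CD4 share (2.67 to 14.9%) included the macrophage share. Of 49 UMIs at day 7, 43 were in Foxp3-positive cells (635 against 12.1 CPM, ratio 52.3, 22.2 to 151), and at day 14 all 27 UMIs were. A single day 7 cell held 28 of the 43, and without it the level was 242 CPM and the ratio 19.9 (7.30 to 62.6). At day 14 the cell with dendritic genes held 7 of the 27. Over the 3 days 9 of the 11 cells with Areg had a Foxp3 UMI, and the level of Areg in all CD4 T cells was 17.8, 87.2 and 305 CPM, or 37.7 at day 7 and 178 at day 14 without the cell with most UMIs of that day. Some effector genes, chosen after their values were seen, had the opposite distribution. At day 7 Ifng was measured at 14.8 CPM in Foxp3-positive cells and 192 in the rest (0.0769), Ccl5 at 236 and 1345 (0.176, with 15 of the 16 Foxp3-positive UMIs in 1 cell), and Cd40lg, the ligand by which helper cells license other cells, had a ratio of 0.243, while the interval of Cxcr3 included 1 (0.512, 0.216 to 1.04). Only 1 of the 15 cells held Ifng or Tbx21. Across all CD4 T cells, 2 of 8 regulatory genes compared were at least 2-fold higher and 1 at least 2-fold lower at day 14 than at day 7 beside 5.23% and 7.72% of all genes (median log2 ratio 0.33, but -0.50 where at least 2 Cd4 UMIs were required).

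**Figure D4:**
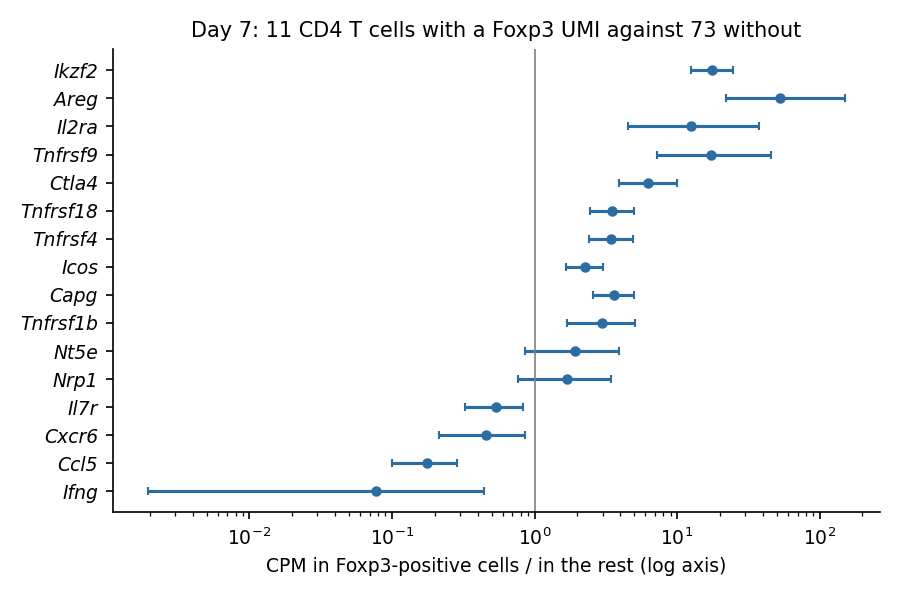
Ratio of the level in 11 CD4 T cells with a Foxp3 UMI to that in 73 without, at day 7, for 16 genes chosen after their values were seen, on a log axis with 95% exact conditional intervals for counting error. The intervals lie above 1 from Icos at 2.25 to Areg at 52.3 (19.9 without 1 cell), those of Nt5e and Nrp1 include 1, and below 1 lie those of Il7r, Cxcr6, Ccl5 and Ifng.

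CD4 T cells were next compared with CD8 T cells of the same libraries (27, 47 and 14 cells), whose gate differed only in requiring Cd8a or Cd8b1 and no Cd4. UMIs were summed per library and cell type, and edgeR's quasi-likelihood test with the library as a block and Benjamini-Hochberg adjustment was run over 2697 genes. The libraries, 1 per day, are the replicates, so the p-values concern the difference over these 3 samples only. With 2 residual degrees of freedom they also lean on the spread shared over genes. In CD4 T cells 21 genes were higher (0.779% of those tested) and 17 lower (0.630%), gate genes left out, and 37 of the 38 had the same direction in every library. At an unadjusted p under 0.05 there were 357. The counts depended on single libraries, with 56 higher and 54 lower without day 3, 29 and 19 without day 7, and 54 and 59 without day 14, and were 31 and 35 without cells holding genes of other types. Of the 10 leading genes of each direction, 19 in all could be fitted without day 3, 7 without day 7 and 18 without day 14. Those fitted kept their call and direction, but some sizes moved. The refits reuse the remaining libraries and are no independent support. Ramp3 had log2 fold changes of 4.45 without day 7 and 8.32 without day 14, Cd40lg 5.40 without day 14, Klrc1 -5.41, Gzma -7.32 and Prf1 -3.26 without day 7.

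Maf and several costimulatory genes were higher in CD4 T cells. Maf, a factor of helper cell cytokine programs, had 764, 519 and 497 CPM in CD4 and 43.9, 48.0 and 99.7 in CD8 T cells at days 3, 7 and 14 (log2 fold change 3.26, SE 0.36, edgeR adjusted p = 0.000439). In CD4 T cells of day 3, 25 of the 43 Maf UMIs were in 1 cell, without which the level was 346 CPM. Icos stood at 160, 454 and 757 against 54.8, 70.7 and 127 (2.36, SE 0.33, edgeR adjusted p = 0.00218). Tnfrsf4 had 53.3, 272 and 169 CPM against 0, 10.1 and 0 (4.96, SE 0.58, edgeR adjusted p = 0.000719), and Cd40lg 71.1, 110 and 181 against 0, 2.53 and 54.4 (3.33, SE 0.68, edgeR adjusted p = 0.0317). In none of these 4 genes did the libraries of the CD4 and CD8 T cells overlap. Of 10 costimulation and checkpoint genes tested, 4 were higher by both tools, the fourth being Tnfrsf18, and none lower (median log2 fold change 1.22, beside 0.00 for all genes).

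Genes for secreted and membrane-bound mediators followed. Of 6 tested genes for repair cytokines and growth factors 4 were higher in CD4 T cells by edgeR and 2, Tnfsf8 and Tnfsf11, by DESeq2, with a median log2 fold change of 2.74, fitted or with Areg at its bound. Areg had 1, 49 and 27 UMIs in CD4 and none in CD8 T cells, which puts it at least 25-fold higher against a floor of 3 UMIs over the CD8 libraries (edgeR adjusted p = 0.00345, DESeq2 adjusted p = 0.444). Tnfsf11 (RANKL), the cytokine that drives osteoclast formation, had a log2 fold change of 3.67 (edgeR adjusted p = 0.00606), Tnfsf8 (CD30 ligand) one of 2.99, and the protease Furin one of 2.48 (DESeq2 adjusted p = 0.224). Ramp3, a partner protein of the calcitonin receptor-like receptor that shapes adrenomedullin and calcitonin gene-related peptide signalling, had 7, 82 and 22 UMIs against 0, 0 and 2 (5.45, SE 0.68, edgeR adjusted p = 0.00103).

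Cytotoxic genes were lower in CD4 T cells, 7 of the 11 tested by edgeR (median -2.56) and 4 by DESeq2, Ccl5, Gzma, Prf1 and Nkg7. Ccl5, though present in CD4 T cells, was at 3109, 1211 and 576 CPM against 22518, 7521 and 6398 in CD8 T cells (log2 fold change -2.99, SE 0.22, edgeR adjusted p = 3.44e-05). The granzyme Gzma had 0, 16.01 and 11.3 CPM against 3055, 843 and 317 (-6.20, SE 0.51, edgeR adjusted p = 3.81e-05). The pore-forming protein Prf1 had 17.8, 7.12 and 11.3 against 170, 129 and 127 (-3.89, SE 0.49). Cd160, a receptor of cytotoxic lymphocytes, had 0 UMIs in CD4 T cells and 79 in CD8 T cells, at least 27.0-fold lower. The NK receptors Klre1, Klrc1 and Klrc2 and the T-box factor Eomes were also lower, with log2 fold changes from -5.74 to -3.33. None of the 14 receptor complex genes, 16 activation genes, 18 proliferation genes or 9 interferon-stimulated genes tested passed the threshold of the edgeR test in either direction. At an unadjusted p under 0.05 there were 2, 6, 6 and 0 of these, and DESeq2 called none of them.

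**Figure D5:**
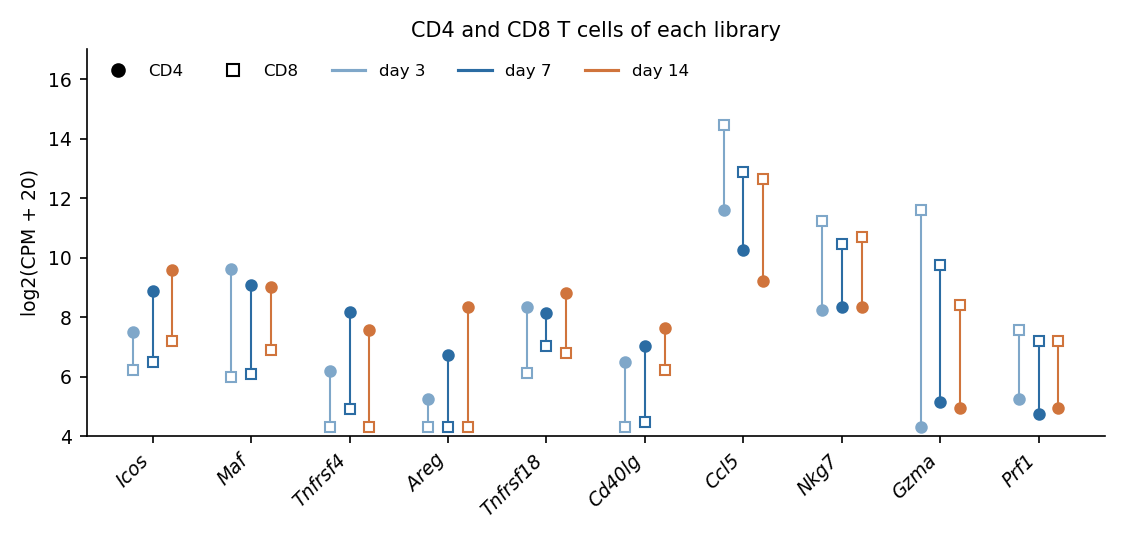
Levels of 10 genes in CD4 (filled circles) and CD8 T cells (open squares) of the same library, as log2 of CPM plus 20, coloured by day, with 1 library per day. Icos, Maf, Tnfrsf4, Areg, Tnfrsf18 and Cd40lg lie higher in CD4 T cells at each day, and Ccl5, Nkg7, Gzma and Prf1 lower.

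The comparison with γδ T cells (43 cells at day 7 and 15 at day 14) rested on 2 libraries, since day 3 held only 4 such cells. With 1 residual degree of freedom the edgeR p-values lean on the spread shared over genes, and DESeq2, run on the same sums, called 4 genes higher and 6 lower. By edgeR 62 of 3302 genes were higher in CD4 T cells (1.88%) and 88 lower (2.67%), and 353 had an unadjusted p under 0.05. The γδ gate was set on Trdc and Cd163l1, and other γδ receptor genes served as its check. Trdv4 had 0 UMIs in CD4 and 150 in γδ T cells, and Tcrg-C1 stood at 8.89 and 0 CPM in CD4 against 740 and 810 in γδ T cells at days 7 and 14.

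A number of receptor and costimulation genes were higher in CD4 T cells. Trac stood at 841 and 734 CPM against 83.4 and 60.8 in γδ T cells at days 7 and 14 (log2 fold change 3.46, SE 0.39, edgeR adjusted p = 6.46e-16). Tnfrsf4 had 168 UMIs and none in γδ T cells, at least 34.3-fold higher, and Ctla4 had 139 and 169 CPM against 10.0 and 20.3 (3.52, SE 0.58, edgeR adjusted p = 1.56e-07). Of 9 costimulation and checkpoint genes 6 were higher and none lower, and of 14 receptor complex genes 6 were higher, among them the receptor-tuning proteins Cd5, Cd6 and Themis. DESeq2 called 1 gene of each list, Cd28 and Trac, and so not Tnfrsf4 or Ctla4. Slamf6 (139 and 169 against 3.34 and 0 CPM) and Slamf1, adhesion receptors between lymphocytes, were higher by edgeR only.

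Some cytokine receptor genes were lower in CD4 T cells and 1 was higher. The interleukin 23 receptor Il23r had a log2 fold change of -5.31 and the interleukin 1 receptor Il1r1 one of -3.70 (edgeR adjusted p = 1.12e-05 and 3.15e-07). DESeq2 gave Il1r1 an adjusted p of 0.328 and gave none for Il23r. The interleukin 6 receptor Il6ra went the other way, at 65.8 and 102 against 26.7 and 0 CPM (1.94, SE 0.62, edgeR adjusted p = 0.0374, no DESeq2 adjusted p). Zbtb16, Blk and Sox13, factors and a kinase of innate-like γδ T cells, had 0 UMIs in CD4 T cells of both days and 36, 124 and 28 in γδ T cells. Cxcr6 stood at 304 and 33.9 CPM in CD4 and at 1084 and 1144 in γδ T cells (log2 fold change -2.72, SE 0.36, edgeR adjusted p = 1.33e-11, DESeq2 adjusted p = 0.506), and the low day 14 level of CD4 T cells had no counterpart in the γδ T cells. H2-Aa, H2-Ab1 and Cd74 also passed the threshold, but the day 14 cell with dendritic genes held most of their CD4 UMIs. Ifitm3 passed it too, with 48 UMIs at day 7 and 44 at day 14, all 44 in that cell.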

How the data were processed

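Left carotid arteries of mice were dissociated, pooled and run as 1 10x library per time point (4 libraries). The authors' deposited matrices hold raw UMI counts for 31053 genes per barcode, written by Cell Ranger 3.0.2 per the file headers. The build named in the sources is not a mouse build, so no gene coordinates were taken from the matrices. The members, the gene lists and the tests were chosen with earlier results of these data known. UMIs were summed per library and gate, and days were compared as CPM (UMIs per 1000000) with exact Poisson, conditional or Clopper-Pearson intervals at 95%, which cover counting error only. Genes were compared where at least 20% of cells of either day held a UMI, with 20 CPM added. Of 335 list genes 334 matched. Named genes were the 10 with the largest ratios in each direction per comparison, the 20 leading genes and list genes with at least 10 UMIs. Cell types were compared with edgeR 4.0.16 (TMM, filterByExpr, glmQLFit and glmQLFTest, library as block) at an adjusted p of 0.05, and with DESeq2 1.42.0 as an alternative. A library entered where both groups held at least 5 cells. Because only day 7 held 5 or more Foxp3-positive cells, the test planned for them could not be run. On simulated data the CD8 comparison (2703 genes) recovered 34, 88, 96 and 94% of genes changed 2-, 4-, 8- and 16-fold, and the γδ comparison (3308 genes) 8, 62, 90 and 84%. Doublets were not removed: Scrublet's own threshold marked 17 of 6161 barcodes (0.276%), too few to be used, and removal of the 106 top-ranked barcodes, at 0.8% per 1000 barcodes, was an alternative. Thinning was to 1000 UMIs. Scrublet ran in scanpy 1.11.5. Promoter windows came from the RefSeq table of GRCm38.p6. Some genes are not reported here.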

Additional observations from a re-analysis of the deposited data

Results flagged for a closer look

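Among list genes with at least 10 UMIs in each cell type and a UMI in at least 20% of the CD4 T cells of either day, 4 differed at least 2-fold between days 14 and 7 in opposite directions in CD4 and CD8 T cells of the same libraries, given as log2 ratios. Further genes outside these limits also had ratios of opposite sign, Mki67 among them (98 and 1 UMIs in CD4, 21 and 23 in CD8 T cells). The contrast is a difference that was not tested because each day is 1 library. Nr4a3 had 1.47 in CD4 T cells (41 and 21 UMIs at days 7 and 14) and -1.98 in CD8 T cells (66 and 3). The proliferation genes went the other way. Top2a had -2.97 in CD4 (127 and 1 UMIs, or -1.98 without the deepest day 7 cell, which held 69 of the 127) and 2.82 in CD8 T cells (14 and 41), Hmgb2 -1.72 (759 and 35) and 1.77 (242 and 236), and Tubb5 -1.39 (351 and 20) and 1.27 (166 and 115). In the uninjured library of day 0, which no comparison used, 5 barcodes passed the gates for CD4 T cells.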

How the results depend on the processing

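The day 14 activation difference kept its direction under all 14 alternatives tried, with list medians from 1.09 to 1.41. Requiring 2 Cd4 UMIs moved several results. CD4 shares became 0.418%, 2.43% and 0.682% at days 3, 7 and 14, and the Foxp3 shares 6.12% and 0% at days 7 and 14. The regulatory list's median between days 14 and 7 became -0.50, and the log2 ratio of Ikzf2 between days 7 and 3 turned to -0.036. A limit of 5% mitochondrial UMIs put the day 7 share at 3.03%, and thinning put the Foxp3 shares at 2.38% and 0%. Without cells holding genes of other types (an alternative chosen after seeing the data, as was leaving out shared barcodes), the log2 ratios of day 14 to day 7 were -1.61 for H2-Eb1, -1.01 for Cd74, -1.32 for H2-Aa, -2.69 for H2-Ab1 (-2.44 against day 3) and -2.51 for Ifitm3, and 35 genes were lower in CD4 than in CD8 T cells. For CD4 against CD8 T cells DESeq2 called 13 higher and 8 lower, no filter on low counts 53 and 57, and leaving out each library 29 to 56 and 19 to 59. For γδ T cells DESeq2 called 4 and 6. The labels give each day 1 replicate, so the library was the replicate block; without it 18 and 16 genes were called against CD8 T cells, and 27 and 43 against γδ T cells. Of 303 alternative values of genes named in these comparisons, 15 lost their call and none changed direction, and of 452 values of genes named between days 17 moved and 7 changed sign, those given above. Among the main results, 112 further values of genes named between days were tried, of which 1 moved. The day 14 to day 7 ratio of Icos, given above, turned with 2 Cd4 UMIs required. Leaving out the cell with most UMIs of the gene on either day (also chosen after seeing the data) was counted apart: of 128 values 2 moved, Ccl5 to -0.68 between days 14 and 7 and -0.31 between days 7 and 3, and 7 changed sign, Maf between days 7 and 3 to 0.56, H2-Eb1, Cd74, H2-Aa, H2-Ab1 and Ifitm3 between days 14 and 7 to -1.56, -0.94, -1.32, -2.68 and -2.40, and H2-Ab1 between days 14 and 3 to -2.44. Leaving out a library of the γδ comparison left no residual degrees of freedom and was not run, nor was the edgeR test planned for Foxp3-positive cells with its alternatives.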

Other observations

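The 5 barcodes of day 0 that passed the gates (33740 UMIs, median 6015 per cell) are too few for a comparison, and their values are given as found. They held genes of naive and recirculating T cells. Lef1, a factor of naive T cells, had 37 UMIs or 1097 CPM, Satb1 had 1541 CPM and Igfbp4 had 919. Ccl5, Cxcr6 and Maf had 0 UMIs. Of 60 Top2a UMIs 59 were in 1 cell. In all, 152 barcodes of the day 0 library also occurred in the day 3 library, none of them among the CD4 T cells.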
